A study of Drosophila melanogaster with 6 samples.

Results

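Genes of the Wnt, Dpp and Hedgehog signaling pathways were followed in tumors of the Drosophila salivary gland imaginal ring. The set was a fixed list of 40 genes, and its members were found by an exact match of the gene symbol in the authors' deposited table, which held 31 of the 40 among its 6156 genes. The other 9 members (Wnt2, Wnt10, arr, sgg, gbb, scw, Mad, smo and Su(fu)) had no row there, under these symbols or under the same gene identifiers. RNA sequencing had been done on 3 ImR tumor samples and 3 control samples, where ImR is the imaginal ring, the labelled tissue of both groups, a band of diploid progenitor cells at the front of the larval salivary gland. Tumor samples had the genotype Actts>GFP+NICD and control samples Actts>GFP, so both groups carried an actin-driven GFP under the temperature-sensitive repressor Gal80ts. NICD is the intracellular, constitutively active part of the receptor Notch, and its overexpression from a ubiquitous driver is not limited to the ring by genotype. The label for the tumors reads 7 days at 18 °C and then 7 days at 29 °C, whereas that for the controls names larvae of the third instar and neither days nor temperature, so any difference in age or temperature cannot be told apart from that in genotype.

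Wnt, Dpp and Hedgehog proteins are secreted signals that pattern the imaginal discs and other epithelia of the fly. Wnt ligands bind Frizzled receptors and stabilize Armadillo, the fly beta-catenin, which acts with the DNA-binding protein Pangolin. Dpp, a bone morphogenetic protein, signals through receptor kinases to the transcription factor Mad and lowers transcription of the repressor gene brk. Hedgehog binds Patched, which frees Smoothened and keeps the transcription factor Ci in its activator form. Each pathway also raises transcription of its own inhibitors, which are widely used as readouts of its activity, among them nkd, Notum and fz3 for Wingless, Dad for Dpp and ptc for Hedgehog.

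The authors' deposited table gives 1 row per gene called at an adjusted p below 0.05, with a log2 fold change in which positive values mean higher in tumor. These rows equal in number the calls that the authors give under the heading 1.2, which may be a minimum fold. The adjusted p would then test for a change beyond 1.2-fold rather than for any change, and a gene with no row could differ by less than the test required. It holds no value per sample, so no SD, SE or n stands beside a fold change, the depth of the libraries is unknown, and the p-values reflect a spread between samples that may be technical. Levels are given on a scale of counts per 1000000 reads (CPM). The level of each group was estimated from the authors' mean log2 CPM and fold change, and these estimates rest on the authors' scaling. Over the listed genes they sum to 351471 CPM in tumor and 1224976 CPM in control. The control sum exceeds 1000000, so an estimated level cannot be read as a share of a library's reads. Because genes tested and not called have no row, an unlisted member was either not called or not tested.

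The question was which genes of these pathways differ in level between the tumor samples and the control samples. Of the 31 listed members, 30 were higher in tumor and 1, brk, was lower. These 31 are 77.5% of the 40 members. Among all 9384 tested genes 65.6% were called, 34.0% as higher and 31.6% as lower. The 31 members had a median log2 fold change of 1.997, beside 0.57 over all 6156 genes in the table, and both medians rest on called genes alone. At least a 2-fold difference was found in 22 members, all higher in tumor, while 26.7% of all tested genes were listed past that fold as higher and 23.5% as lower. These shares count fold changes as estimated. The authors' own calls under the heading 2 were fewer, 3550 in all, with 19.7% of tested genes higher and 18.2% lower, and which members are among them is not given. The smallest rises lay close to the 0.57 of the whole table, and dsh, at 0.54, was the single member listed as higher that fell below it. The adjusted p was 0.01 or more for 6 members (fz2, fz4, dsh, pan, Med and brk), so brk, the one lower gene, would not be called at 0.01. None of the 31 members was among the 43 genes for which a group was fitted at 0.

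**Figure D1:**
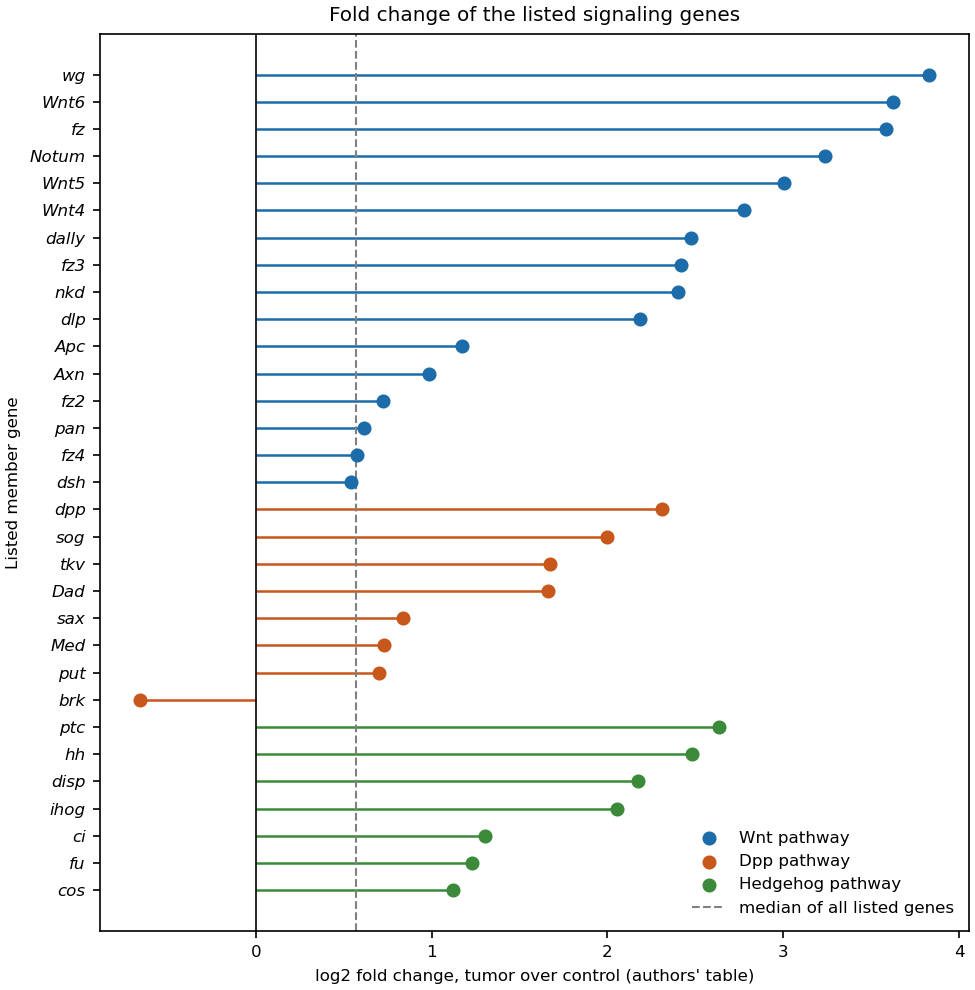
Log2 fold change of tumor over control (horizontal axis) for the 31 listed members (rows), coloured by pathway, from the authors' deposited table; the solid line marks 0 and the dashed line the median of all listed genes, 0.57. The values run from 3.83 for wg to -0.66 for brk, the one gene left of 0, and the files give no error bars.

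Markers of other cells moved with the same contrast, and markers of the secretory gland and fat body were abundant in the samples labelled as control rings. Estimated sums over the listed markers were 211 CPM in tumor and 273420 CPM in control for 10 of 10 salivary gland secretory genes, and 1616 CPM in tumor and 193772 CPM in control for 8 of 10 fat body genes. All of these 18 genes were lower. Of 9 muscle markers 8 were listed, all lower, with sums of 339 CPM in tumor and 2874 CPM in control. Of 10 hemocyte markers 9 were listed, all higher, with sums of 1715 CPM in tumor and 41.6 CPM in control, and NimC4 was fitted at 0 in control. Genes of the tracheal list were higher in 8 of 8, with sums of 961 CPM in tumor and 225 CPM in control. The largest parts in tumor were verm (327 CPM), serp (252 CPM) and Gasp (171 CPM), and whether tracheal cells express them here was not tested. Neuron and glia markers were listed in 4 of 7, with 3 higher and 1 lower and sums of 119 CPM in tumor and 171 CPM in control. The part of these cells in the members' values was not tested, and in bulk samples fewer cells of a type and less RNA per cell cannot be told apart. For scale, the 31 members summed to an estimated 1611 CPM in tumor and 603 CPM in control.

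Wnt ligand genes held 4 of the 6 largest fold changes of the set, with wg and Wnt6 at the top. By the authors' deposited table, wg, which encodes Wingless, the ligand that patterns segments and discs, was 14.2-fold higher in tumor (log2 fold change 3.83, adjusted p = 6.61e-05). Its estimated level was 53.5 CPM in tumor and 3.76 CPM in control. Wnt6 was 12.3-fold higher by the authors' deposited table (adjusted p = 2.28e-05), at an estimated 39.9 CPM in tumor and 3.23 CPM in control. These ligand transcripts were thus near the low end of the set in control and in its middle range in tumor. Wnt5, a ligand best known for guiding axons through the receptor Derailed, was 8.02-fold higher in tumor by the authors' deposited table (adjusted p = 3.94e-05), at an estimated 28.3 CPM in tumor and 3.52 CPM in control. Wnt4 was 6.85-fold higher by the authors' deposited table (adjusted p = 0.00562), at an estimated 8.50 CPM in tumor and 1.24 CPM in control, and had the lowest mean level of the 31 members, 4.87 CPM. On the BDGP6 annotation Wnt4, wg, Wnt6 and Wnt10 lie in this order on chromosome arm 2L, with the unlisted gene CG31909 between Wnt4 and wg. Of these 4 neighbours 3 thus rose and Wnt10 had no row. Wnt2, on another arm, had none either.

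Dpp and Hedgehog, the ligands that give their pathways their names, rose by smaller factors. In the authors' deposited table dpp was 4.97-fold higher in tumor (adjusted p = 0.000641), with an estimated 23.4 CPM in tumor and 4.71 CPM in control. hh was 5.58-fold higher in tumor by the authors' deposited table (adjusted p = 0.000353), with an estimated 15.6 CPM in tumor and 2.79 CPM in control. The 6 listed ligand genes thus had log2 fold changes between 2.31 and 3.83. Per 1000 bases of transcript, the estimated level in tumor was 18.3 CPM for wg, 14.0 for Wnt6, 7.20 for Wnt5, 6.74 for dpp, 6.57 for hh and 2.70 for Wnt4. In control the same length-scaled levels lay between 0.394 CPM for Wnt4 and 1.36 CPM for dpp. With no spread over samples, whether neighbours in this order differ could not be examined. The other bone morphogenetic protein ligand genes of the list, gbb and scw, had no row, so dpp was the only listed ligand of its pathway.

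**Figure D2:**
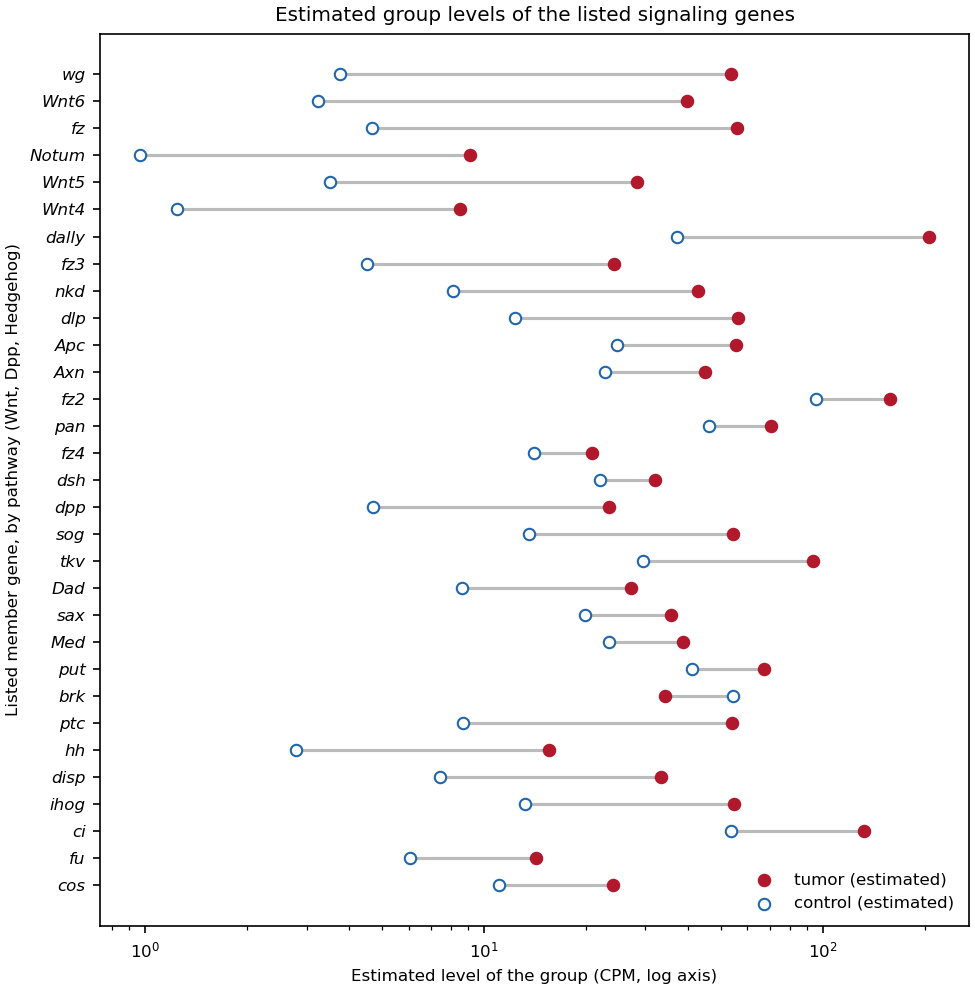
Estimated level of each listed member (rows, by pathway) in CPM on a log axis, with filled red points for tumor and open blue points for control, joined by a line; levels are estimates from the authors' mean and fold change and carry no error. Tumor lies right of control in all rows but that of brk (34.3 CPM in tumor, 54.3 CPM in control), and the longest lines belong to the Wnt ligands, fz and Notum.

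Genes that act on the ligands outside the cell were also higher. The glypicans Dally and Dlp are heparan sulfate proteoglycans that hold Wingless, Dpp and Hedgehog at the cell surface. dally was 5.57-fold higher by the authors' deposited table (adjusted p = 8.32e-05), at an estimated 206 CPM in tumor and 37.1 CPM in control, the highest tumor level of the set. dlp was 4.55-fold higher in tumor by the authors' deposited table (adjusted p = 0.000276), at an estimated 56.2 CPM in tumor and 12.3 CPM in control. sog, which encodes an extracellular antagonist of bone morphogenetic proteins, was 3.99-fold higher by the authors' deposited table (adjusted p = 5.14e-05), at an estimated 54.4 CPM in tumor and 13.6 CPM in control. disp encodes Dispatched, which releases lipid-modified Hedgehog from producing cells, and was 4.50-fold higher in tumor by the authors' deposited table (adjusted p = 0.000286). Its estimated level was 33.4 CPM in tumor and 7.42 CPM in control.

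The Frizzled receptor genes differed widely among themselves. fz, the founding Frizzled, which acts in planar cell polarity as well as in Wingless signaling, was 12.0-fold higher by the authors' deposited table (adjusted p = 1.38e-05). Its estimated level was 56.0 CPM in tumor and 4.67 CPM in control. fz2, the high-affinity Wingless receptor, whose transcription Wingless is known to lower in the wing disc, was 1.65-fold higher in tumor by the authors' deposited table (adjusted p = 0.0309), at an estimated 158 CPM in tumor and 95.7 CPM in control. Scaled by length, fz2 was the most abundant Frizzled gene in both groups, at an estimated 35.5 CPM per 1000 bases in tumor and 21.5 in control, beside 14.7 in tumor and 1.22 in control for fz. fz4 was 1.49-fold higher by the authors' deposited table (adjusted p = 0.0181), which is close to the median of the table. The Wingless co-receptor gene arr had no row.

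Receptor genes of the other pathways rose as well. tkv, the type I receptor gene of Dpp, was 3.19-fold higher in tumor by the authors' deposited table (adjusted p = 0.000928), at an estimated 94.0 CPM in tumor and 29.5 CPM in control. sax, a second type I receptor gene, was 1.79-fold higher (adjusted p = 0.00128) and put, the type II receptor gene, 1.63-fold higher (adjusted p = 0.00193) in the authors' deposited table. ihog, which encodes a Hedgehog-binding co-receptor, was 4.16-fold higher by the authors' deposited table (adjusted p = 6.41e-05), at an estimated 54.9 CPM in tumor and 13.2 CPM in control. Among the 12 receptor and glypican genes, 11 were listed, all higher, with log2 fold changes between 0.58 and 3.58 and a median of 2.06. That is 91.7%, beside 65.6% called among all tested genes, where 34.0% were higher.

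All 5 members taken here as transcriptional readouts of these pathways (Notum, nkd, fz3, ptc and Dad) were listed as higher. Among all tested genes 65.6% were called, 34.0% as higher. Notum, which encodes a secreted enzyme that inactivates Wnt ligands, was 9.42-fold higher in tumor by the authors' deposited table (adjusted p = 0.000123), at an estimated 9.10 CPM in tumor and 0.966 CPM in control. nkd, an inhibitor that binds Dishevelled, was 5.28-fold higher by the authors' deposited table (adjusted p = 0.000771), at an estimated 42.8 CPM in tumor and 8.10 CPM in control. fz3, a Frizzled gene induced by Wingless, was 5.35-fold higher in tumor by the authors' deposited table (adjusted p = 0.000484), at an estimated 24.2 CPM in tumor and 4.53 CPM in control. All 3 Wingless readouts thus differed by more than 5-fold. ptc, which encodes the Hedgehog receptor and is induced by Hedgehog, was 6.22-fold higher by the authors' deposited table (adjusted p = 0.00035), at an estimated 54.1 CPM in tumor and 8.70 CPM in control. Dad, the inhibitory Smad gene induced by Dpp, was 3.17-fold higher in tumor by the authors' deposited table (adjusted p = 0.001), at an estimated 27.2 CPM in tumor and 8.60 CPM in control. brk, the repressor gene that Dpp signaling silences, was 1.58-fold lower by the authors' deposited table (log2 fold change -0.66, adjusted p = 0.0137), at an estimated 34.3 CPM in tumor and 54.3 CPM in control. Dad and brk moved in opposite directions, and whether Dpp signaling differs between the groups was not tested. The readouts were picked from textbook knowledge with these values already known, and fz3 and ptc also count among the receptors.

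Listed intracellular components had smaller differences, by median, than the listed ligands, readouts and receptors. In the Wnt pathway, Apc, a scaffold gene of the complex that degrades beta-catenin, was 2.25-fold higher (adjusted p = 0.00996) and Axn, which encodes the scaffold Axin, 1.98-fold higher (adjusted p = 0.00591) in the authors' deposited table. dsh, which relays the signal from Frizzled, was 1.45-fold higher (adjusted p = 0.0227) and pan, the TCF gene, 1.53-fold higher (adjusted p = 0.0219) in the authors' deposited table. The kinase gene sgg, the fly GSK3 and part of the same complex, had no row. In the Hedgehog pathway, the kinase gene fu was 2.34-fold higher (adjusted p = 0.000461) and cos, which encodes a kinesin-like scaffold, 2.18-fold higher (adjusted p = 0.00057) in the authors' deposited table. ci, the Gli gene of the fly, was 2.47-fold higher in tumor by the authors' deposited table (adjusted p = 0.000815), at an estimated 133 CPM in tumor and 53.7 CPM in control. The Hedgehog transducer gene smo and the inhibitor gene Su(fu) had no row. Of the Smads, Med was 1.66-fold higher, and its adjusted p of 0.0449 is the largest of the set in the authors' deposited table. Mad had no row.

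By role, the 6 listed ligand genes had a median log2 fold change of 2.89, the 5 readouts 2.42, the 11 receptors and glypicans 2.06, the 5 listed transducers 1.12 and the 4 listed transcription factors 0.67. Among called genes, ligand values ran from 2.31 to 3.83 and transducer values from 0.54 to 1.23. Listed were 60% of the ligand and 62.5% of the transducer genes, beside 65.6% called among all tested genes. Estimated control levels were 1.24 CPM (Wnt4) to 4.71 CPM (dpp) for the listed ligands and 6.07 CPM (fu) to 24.7 CPM (Apc) for the listed transducers. How far low levels limit which folds are listed was not tested. With 4 of 10 ligand genes and 3 of 8 transducer genes without a row, whether the full roles separate is unknown. By pathway, 16 of 20 Wnt members were listed with a median of 2.41, 8 of 11 Dpp members with 1.25, and 7 of 9 Hedgehog members with 2.06. Those counts are 80%, 72.7% and 77.8% of the members, beside 65.6% called among all tested genes. These medians are descriptions over called genes and the difference between them was not tested.

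Members had long transcripts, and long transcripts were mostly higher in tumor. The median annotated transcript of the 31 members was 3759.5 bases, beside 1879 over all listed genes, and all 31 were longer than the median listed gene. Of the 763 listed genes with lengths between the members' quartiles (3079.75 and 4364.5 bases), 85.7% were higher in tumor with a median log2 fold change of 1.29, beside 96.8% and 1.997 for the members. Over all listed genes with a length, 51.7% were higher in tumor. The part that transcript length has in the members' fold changes was not tested. With strand use not given in the sources used here, exons shared with a gene on the opposite strand add doubt for fz4, Axn, tkv, Med, disp, fu and ci, in which such exons made up at most 9.7% of the exon bases for any 1 partner gene.

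**Figure D3:**
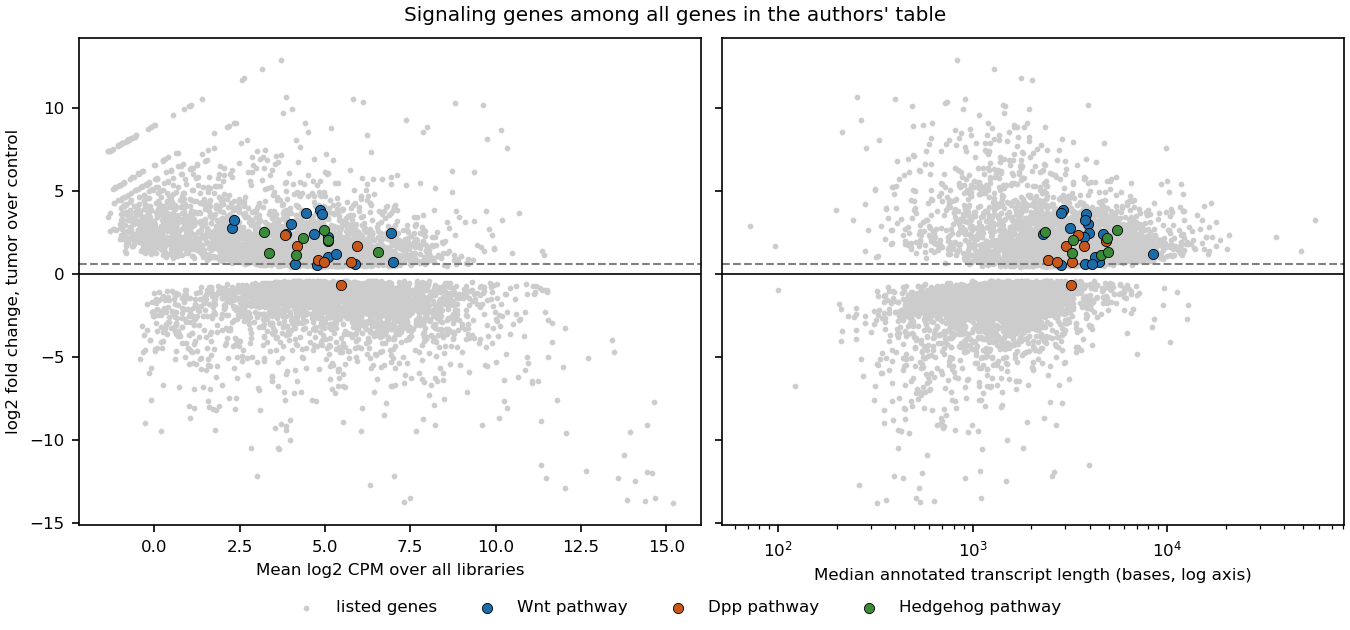
Log2 fold change of tumor over control (vertical axis) of all 6156 genes in the authors' deposited table (grey) and the listed members (coloured by pathway), against mean log2 CPM (left) and median annotated transcript length in bases on a log axis (right); the solid line marks 0 and the dashed line the median of 0.57. Members lie in the middle range of expression and at the long end of transcript length, where grey points above 0 outnumber those below.

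Of other pathway genes, from lists of textbook components, those called were mostly higher in tumor for Wnt and Dpp and evenly divided for Hedgehog. Of 20 further Wnt components 13 were listed, 12 higher and 1 lower, with a median log2 fold change of 1.11. The share listed was 65%, beside 65.6% called among all tested genes. The Wnt receptor-like gene otk was 12.2-fold higher (adjusted p = 4.72e-05), and Apc2, the second fly APC gene, 6.13-fold higher (adjusted p = 4.76e-05), in the authors' deposited table. Swim, whose product was described as a Wingless carrier, was 4.67-fold higher (adjusted p = 0.000132) and pygo, a nuclear cofactor of Armadillo, 2.47-fold higher (adjusted p = 0.000145) in the authors' deposited table. arm, the beta-catenin gene, was 1.89-fold higher by the authors' deposited table, and slmb, a ubiquitin ligase gene, was the one lower gene at 1.52-fold; both are named after their values were seen. All 12 planar polarity genes were listed, 11 higher and 1 lower, with a median of 2.92. Among all tested genes 65.6% were called, 34.0% as higher. The atypical cadherin genes ft and ds were 19.5-fold (adjusted p = 9.7e-05) and 9.53-fold higher (adjusted p = 0.000105), and dgo and pk, which act with Frizzled, 12.5-fold (adjusted p = 2.64e-05) and 8.31-fold higher (adjusted p = 2.8e-05) in the authors' deposited table. fy, which acts downstream of them, was the one lower gene, at 1.63-fold in the authors' deposited table, named after its value was seen. The planar polarity genes spanned log2 fold changes from -0.71 to 4.29. That range covers all 31 members (-0.66 to 3.83), among them fz (3.58), which also acts in planar polarity. Whether the rise of fz is tied to planar polarity was not tested.

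Of 20 further Dpp and TGF-beta components 15 were listed, 14 higher and 1 lower, with a median log2 fold change of 1.55. The share listed was 75%, beside 65.6% called among all tested genes. magu, which encodes a secreted factor that widens the Dpp gradient, was 5.95-fold higher (adjusted p = 4.72e-05) and tld, a protease gene whose product cleaves Sog, 11.6-fold higher (adjusted p = 0.0001) in the authors' deposited table. mav, another TGF-beta family ligand gene, was 3.14-fold (adjusted p = 0.000106) and cv, whose product binds bone morphogenetic proteins, 2.60-fold higher (adjusted p = 0.000189) in the authors' deposited table. The activin-type ligand gene daw, named after its value was seen, was the one lower gene, at 1.69-fold in the authors' deposited table. Of 13 further Hedgehog components 8 were listed, 4 higher and 4 lower, with a median of -0.04. Their share listed, 61.5%, was below that of all tested genes. boi, a co-receptor gene related to ihog, was 4.84-fold higher (adjusted p = 0.00158), and shf, whose product helps Hedgehog spread, 3.20-fold higher (adjusted p = 0.000431), in the authors' deposited table. The kinase gene dco was 2.16-fold higher (adjusted p = 0.000891) and Roc1a, a subunit gene of the ubiquitin ligase that processes Ci, 2.97-fold lower (adjusted p = 0.00108) in the authors' deposited table. The other 3 lower genes, Pka-C1 (1.495-fold), slmb (1.52-fold) and rdx (1.70-fold in the authors' deposited table), are named after their values were seen. slmb and dco are also among the Wnt components.

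Of 11 genes for making or trimming heparan sulfate 5 were listed, 4 higher and 1 lower, with a median log2 fold change of 1.62. The share listed was 45.5%, beside 65.6% called among all tested genes. The sulfatase gene Sulf1 was 5.70-fold higher (adjusted p = 0.00119) and the sulfotransferase genes sfl and Hs3st-A 3.26-fold (adjusted p = 0.000496) and 3.07-fold higher (adjusted p = 0.019), whereas the sulfotransferase gene Hs2st was 4.04-fold lower (adjusted p = 2.28e-05), in the authors' deposited table. Hs3st-A was scarce, at an estimated 1.63 CPM in tumor and 0.530 CPM in control. Enzymes acting on the glypican chains thus moved in both directions while dally and dlp rose.

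Of 20 transcription factor and cofactor genes known as targets of Wingless, Dpp or Hedgehog in discs or embryo, 9 were listed. Of these, 8 were higher and 1 lower, with a median log2 fold change of 2.07. The share listed was 45%, beside 65.6% called among all tested genes, where 34.0% were higher. vg, the wing selector gene, was 19.2-fold higher (adjusted p = 0.00514) and pnr, a GATA factor gene of the dorsal midline, 15.3-fold higher (adjusted p = 0.000203) in the authors' deposited table. Both folds rest on low control levels, an estimated 0.550 CPM for vg and 0.426 CPM for pnr. Their estimated tumor levels were 10.5 CPM for vg and 6.53 CPM for pnr. salm and salr, which pattern the wing in response to Dpp, were 4.19-fold (adjusted p = 0.0236) and 5.64-fold higher (adjusted p = 0.0292), and kn, a Hedgehog target of the central wing, 4.71-fold higher (adjusted p = 0.0178), in the authors' deposited table. These 3 genes were scarce, with estimated levels of 3.74 CPM in tumor and 0.892 CPM in control for salm, 4.13 CPM in tumor and 0.732 CPM in control for salr, and 1.88 CPM in tumor and 0.398 CPM in control for kn. The homeobox genes tup and ct were 3.69-fold (adjusted p = 0.000737) and 2.82-fold higher (adjusted p = 0.000594), and ush, a cofactor gene of Pannier that is also among the hemocyte markers, 2.65-fold higher (adjusted p = 0.00191) in the authors' deposited table. sens, a zinc finger gene that Wingless induces at the wing margin and that is also expressed in salivary gland cells, was 4.65-fold lower in tumor by the authors' deposited table (adjusted p = 0.000745). Its estimated level was 25.3 CPM in tumor and 117 CPM in control. The other 11, among them en, inv, bi and Dll, had no row.

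**Figure D4:**
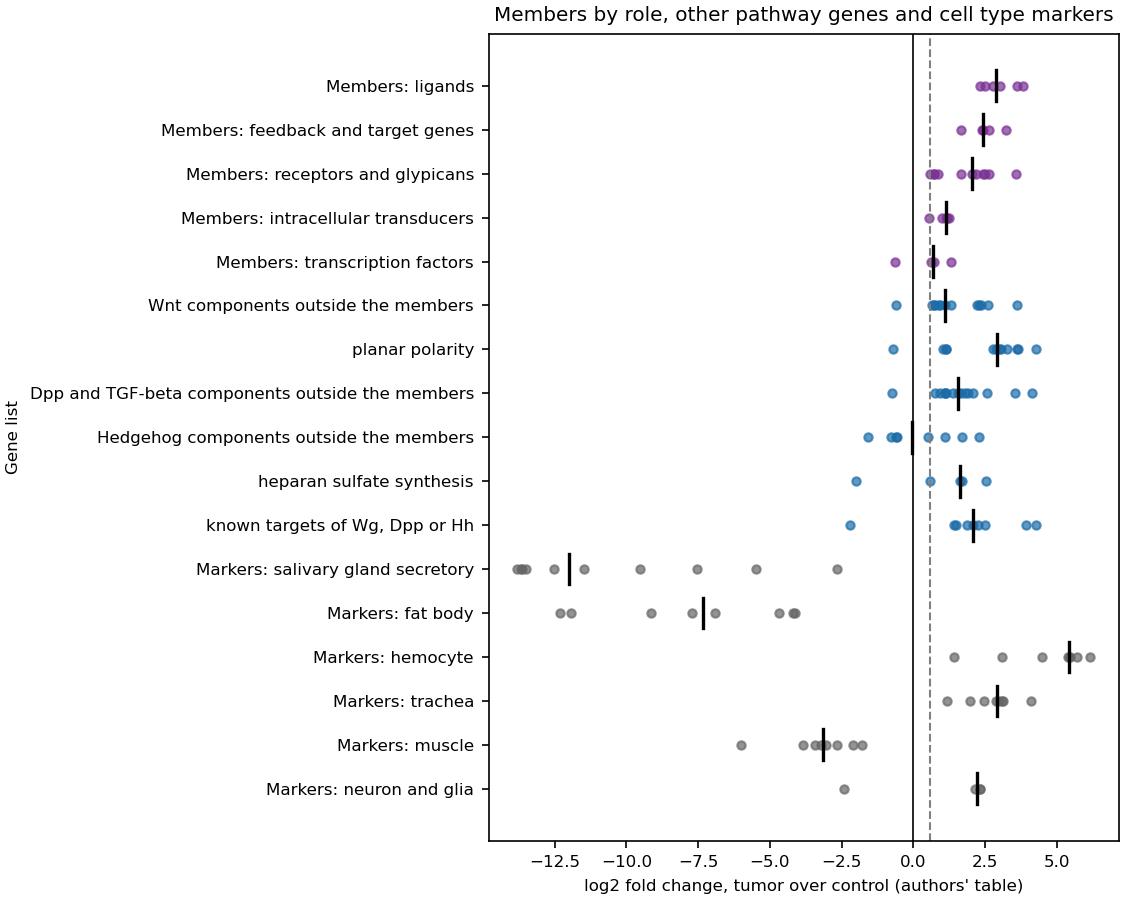
Log2 fold change of tumor over control (horizontal axis) of the listed genes in each list (rows): members by role (purple), further pathway genes (blue) and cell type markers (grey); each point is a gene, black bars are medians, the solid line marks 0 and the dashed line the table's median of 0.57, and NimC4, fitted at 0 in control, is left out. Member roles are drawn in descending order of their medians, from ligands (2.89) to transcription factors (0.67). Secretory gland, fat body and muscle markers lie left of 0 and hemocyte and tracheal markers right of it.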

How the data were processed

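RNA from 3 tumor and 3 control samples was sequenced, with groups taken from the sample titles. The submitters' processing notes name featureCounts for counting and DESeq2 for the comparison. No aligner, build, annotation or strand setting is given in these sources, and the column names are not those DESeq2 writes, so the tool behind the values is unsettled. They are the names used for a test against a minimum fold. Per the file headers, the authors gave each called gene a p-value, its adjusted form, a mean log2 CPM and a log2 fold change. A column of unshrunk log2 fold changes, a score here because it exceeds 100 in size where a group is fitted at 0, was deposited by the authors beside them, and differed from the first by at most 0.0048 among the members. The deposited numbers of calls stand under headings 1.2 and 2, and the deposited rows equal the calls under the first (3187 up, 2969 down, of 9384 tested).

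Because no value per sample was used, no test was fitted here: calls are the authors' adjusted p below 0.05, which may already include a minimum fold of 1.2. Group levels in CPM were estimated by taking the authors' mean as the average of both groups (arithmetic tested on simulated data). Transcript lengths are medians over transcripts in Ensembl release 115 (BDGP6, version 54), and 6137 listed genes (99.7%) have one. That build may not be the authors', so no coordinates are printed. No sequence is shown. The members and lists were chosen with earlier results of these data known. All 40 members are named. Of every other pathway list up to 4 genes with the smallest adjusted p are named, and of the targets every listed gene. A gene in several lists counts in each. For 1 symbol of the further Wnt components, WntD, no row and no entry in a name table matched. It counts as not listed, and a row under another spelling would be missed. Other settings tried were a limit of 0.01 on the adjusted p, a minimum of 2-fold, mean log2 CPM over the table's lower quartile (3.06), unshrunk values and folds re-centred on the table's median. Tools were Python 3.11.15, pandas 2.3.3, NumPy 2.4.6 and matplotlib 3.10.9.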

Additional observations from a re-analysis of the deposited data

How the results depend on the processing

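The 31 calls fell to 25 at an adjusted p below 0.01, 22 at a 2-fold minimum and 29 over the lower expression quartile, with 25, 22 and 28 of them higher in tumor. The number lower in tumor, 1 (brk), was 0 at an adjusted p below 0.01 and 0 at a 2-fold minimum, and 2 with folds re-centred on the table's median, where dsh turned to -0.0319. The members' median log2 fold change of 1.997 moved to 2.19 at an adjusted p below 0.01, 2.36 at a 2-fold minimum, 1.67 over the lower quartile and 1.43 re-centred, and stayed at 1.997 with unshrunk values. Fewer genes counted, or the shift itself, make these differences. Leaving out replicates was not run, since the files used hold no value per sample. No paired analysis was possible because the columns carry no replicate. Depth is unknown, so its limits could not be set.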
